A study of Mus musculus with 26 samples.

Results

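MHC class II genes and the invariant chain Cd74 were followed through cultured mouse bone marrow macrophages in 7 groups on Illumina bead arrays. Genes were taken by their symbol in the authors' deposited tables: the class II chains of H2-A, H2-E, H2-DM and H2-O, with Cd74 and the transactivator Ciita. This found 6 of 5838 named genes, measured by 9 of the 25697 probes, of which 7244 carry a gene name: 4 probes for H2-Ab1 and 1 each for H2-Aa, H2-Ea, H2-Eb1, H2-DMb1 and H2-Oa. No named probe carried the symbol Cd74, but 2 probes carry Ii, which the RefSeq gene table lists as an older symbol of Cd74 alone, on the same chromosome, 18. These are given here as Cd74 beside the 9 and are left out of their counts. Ciita, H2-Eb2, H2-DMa, H2-DMb2 and H2-Ob were not analysed here. Names exist only for probes that the authors listed as differing in at least 1 comparison, so which members carry a name depends on these same data.

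Cox2, the product of Ptgs2, is the inducible cyclooxygenase on the route to prostaglandin E2 (PGE2). NS398 inhibits it, RANKL turns macrophage precursors into bone-resorbing osteoclasts, and M-CSF keeps these cells alive. All cells were marrow macrophages of male CD1 mice, an outbred stock, aged 2 months, expanded in M-CSF at 100 ng/ml. On day 1 (experiment 1) there were Cox2 KO cells with M-CSF and RANKL at 30 ng/ml each (n = 3), WT cells with the same (n = 3), and WT cells with M-CSF only (n = 4), whose dose is not given. On day 3 (experiment 2) there were KO cells with M-CSF, RANKL and 1 µM PGE2, KO cells with M-CSF and RANKL, WT cells with M-CSF, RANKL and 0.1 µM NS398, and WT cells with M-CSF and RANKL (n = 4 each). The labels describe biological replicates but not whether each came from its own mouse, so p-values measure the spread between these samples. No group of KO cells without RANKL was analysed here.

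The arrays of an experiment share nearly 1 distribution, with medians of 228 in experiment 1 and from 150.3 to 151 in experiment 2, so levels of the 2 days are not compared. Within a group, log2 values of any 2 arrays had a Pearson r of 0.993 to 0.995 on day 1 and of 0.972 to 0.995 on day 3. No named probe stands for Ptgs2, so the genotype labels were not checked against the deleted gene. The replicate labels of 3 arrays with PGE2, 1 KO array and 1 array with NS398 end in an r whose meaning is not given. Of 12 macrophage markers 9 carry a name, and by the deposited group detection p-values 9 were detected in KO cells with RANKL on day 1, 8 in WT cells with RANKL and 9 in WT cells with M-CSF only. The summed intensity of 8 named osteoclast markers on day 1 was 67152 to 93679 in KO arrays with RANKL, 110638 to 115496 in WT arrays with RANKL and 9782 to 11291 in WT arrays with M-CSF only.

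MHC class II molecules are heterodimers of an alpha and a beta chain that show peptides from the endosomal route to CD4+ T cells. H2-Aa and H2-Ab1 encode the chains of I-A, and H2-Ea and H2-Eb1 those of I-E, which some mouse haplotypes do not express. The invariant chain Cd74 fills the groove during transport, H2-DM then removes its remnant and edits the bound peptide, and H2-O (H2-Oa with H2-Ob) binds H2-DM and restrains it. Ciita is recruited to a module of W, X and Y boxes shared by the promoters of this gene family, where RFX, CREB and NF-Y factors bind. Macrophages carry little class II at rest, and interferon-gamma is the classical inducer.

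The promoters of H2-Aa, H2-Eb1 and H2-Oa are printed because their genes moved in different directions in these cultures while sharing the letters of this module. Each runs from 250 bases before to 50 bases after the start of the gene, 5′ to 3′ on the gene's strand, from RefSeq, build GRCm38.p6. H2-Aa lies at chr17:34287774-34288073 on the minus strand, H2-Eb1 at chr17:34305617-34305916 on the plus strand and H2-Oa at chr17:34092129-34092428 on the plus strand. Capitals mark the letters GCAAC of the X box core and CTGATTGG of the Y box.
H2-Aa: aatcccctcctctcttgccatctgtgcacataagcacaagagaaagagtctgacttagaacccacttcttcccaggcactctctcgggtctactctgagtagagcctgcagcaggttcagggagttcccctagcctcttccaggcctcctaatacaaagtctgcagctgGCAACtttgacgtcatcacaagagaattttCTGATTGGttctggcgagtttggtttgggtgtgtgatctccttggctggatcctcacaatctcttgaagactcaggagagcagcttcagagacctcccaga
H2-Eb1: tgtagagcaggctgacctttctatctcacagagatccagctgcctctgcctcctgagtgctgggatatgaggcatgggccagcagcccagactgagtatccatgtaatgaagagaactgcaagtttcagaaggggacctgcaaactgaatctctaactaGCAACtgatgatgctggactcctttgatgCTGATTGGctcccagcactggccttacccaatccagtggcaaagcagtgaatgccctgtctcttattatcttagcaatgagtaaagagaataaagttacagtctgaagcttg
H2-Oa: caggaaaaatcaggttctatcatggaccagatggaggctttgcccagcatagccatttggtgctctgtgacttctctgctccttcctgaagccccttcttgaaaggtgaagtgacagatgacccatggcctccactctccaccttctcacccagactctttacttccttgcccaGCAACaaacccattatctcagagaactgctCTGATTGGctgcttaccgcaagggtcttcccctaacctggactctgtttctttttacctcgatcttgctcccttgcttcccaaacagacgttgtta
In H2-Aa and H2-Oa 25 bases lie between the marked letters, and in H2-Eb1 24. The X core begins 81 bases before the start in H2-Aa, 91 in H2-Eb1 and 76 in H2-Oa. These letters were chosen after the promoters had been seen, and a match is a description of sequence, not of binding. Over 32851 promoter windows of this length, searched on both strands, 35.2% held GCAAC, 4.1% held CTGATTGG, and 22 (0.067%) held GCAAC followed on the same strand by CTGATTGG after 20 to 30 bases. The window of H2-DMb1 held neither of the exact letter runs. It held tgattgg, the Y box run without its first letter, and a looser match to the module was not tested. Promoters of H2-Ab1 and H2-Ea were not used here.

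RANKL given to WT macrophages for 1 day lowered the class II genes, with 1 exception. Against M-CSF only, both chains of I-A and both of I-E, the invariant chain and the H2-DM beta chain were all lower in WT cells with RANKL, by 1.72 to 2.83 times, and the H2-O alpha chain was higher. Of the 9 probes 8 were lower and 1 higher, with a median log2 change of -1.05. In this comparison 37.7% of all probes tested and 75.8% of those with a name were called at an adjusted p under 0.05 (of all probes, 17% higher and 20.7% lower), and the median log2 change of all probes was -0.02. All 9 are on the authors' own list for this comparison, so the number called adds nothing to that listing, and what the values add is direction and size. In bulk RNA, fewer cells of a type and less RNA per cell cannot be told apart.

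H2-Ea, the alpha chain of I-E, had 678, 681 and 685 units of intensity in the 3 WT arrays with RANKL, against 1849, 1879.9, 1884 and 2096 in the 4 WT arrays with M-CSF only. The arrays with RANKL lie together far below the lowest array without it. The log2 change was -1.50 ± 0.11 (SE; adjusted p = 3.54e-10). H2-Aa, the alpha chain of I-A, had 270.0, 356 and 395 units with RANKL, against 844 to 933 with M-CSF only, a log2 change of -1.38 ± 0.11 (adjusted p = 1.81e-09). The brightest H2-Ab1 probe, ILMN_2607675, averaged 2271 ± 126 with RANKL and 5321 ± 313 with M-CSF only (SD). Its log2 change was -1.23 ± 0.10 (adjusted p = 3.71e-09), and the other H2-Ab1 probes changed by -1.17 (ILMN_2631423), -1.05 (ILMN_2913716) and -0.89 (ILMN_1226525). H2-Eb1 changed by -0.83 ± 0.10 (adjusted p = 8.73e-07), with 615, 616 and 654 units with RANKL and 998 to 1209 with M-CSF only. None of these groups overlapped. The Cd74 probes changed by -1.35 ± 0.09 (ILMN_3089584) and -1.23 ± 0.10 (ILMN_1221817), close to the classical chains.

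The peptide editors split. H2-DMb1, the beta chain of the editor H2-DM, had 1371, 1379 and 1494 units in WT cells with RANKL, against 2176, 2462, 2519 and 2563 with M-CSF only, a log2 change of -0.78 ± 0.09 (adjusted p = 3.45e-07). H2-Oa, the alpha chain of the H2-DM antagonist, had 629.9, 631 and 741 units with RANKL, against 192, 203, 204 and 209 with M-CSF only. In the arrays without RANKL it was not above background by the authors' detection p-value (0.234), so it was at least 3.30-fold higher with RANKL (adjusted p = 1.92e-12).

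**Figure D1:**
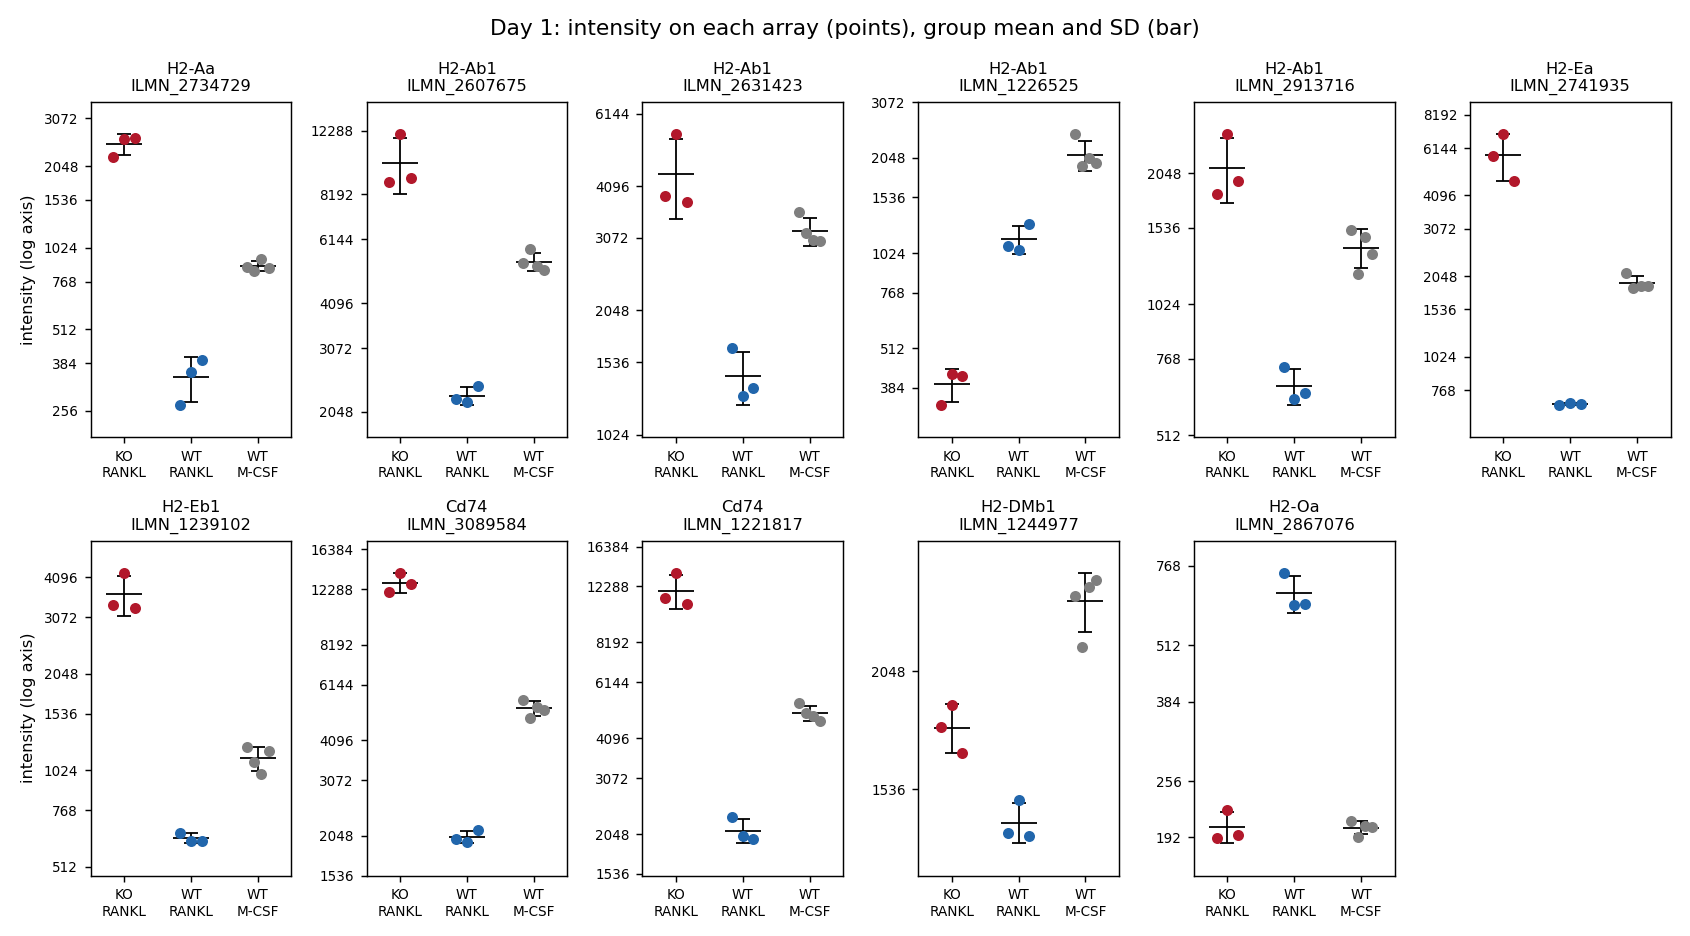
Intensity (log axis) of the class II and Cd74 probes on day 1, a point per array, in KO cells with RANKL, WT cells with RANKL and WT cells with M-CSF only, with the group mean and SD. In 9 of 11 panels the WT arrays with RANKL are the lowest group, while H2-Oa is highest there and H2-Ab1 ILMN_1226525 is lowest in KO.

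After the same 1 day of RANKL, most class II probes were higher in KO cells than in WT cells. Whether RANKL lowered class II in KO cells was not tested, since no KO group without RANKL was analysed here. Against WT cells with RANKL, KO cells had 8.37 times as much H2-Ea, 7.32 times as much H2-Aa, 5.73 times as much H2-Eb1 and 5.65 to 6.34 times as much Cd74, with less of H2-Oa. Of the 9 probes 7 were higher and 2 lower, with a median log2 change of 1.66. The share called was 33.8% of all probes and 70.3% of named probes (of all probes, 18.9% higher and 14.9% lower), and the median log2 change of all probes was 0.02. All 9 are on the authors' list here too. This comparison and the previous one share the 3 WT arrays with RANKL, so their opposite signs are not independent.

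H2-Ea had 4646, 5757 and 6932 units in KO cells, against 678, 681 and 685 in WT cells, and its log2 change was 3.07 ± 0.12 (adjusted p = 1.95e-14). H2-Aa had 2211, 2586 and 2598 units in KO cells, against 270.0, 356 and 395 in WT cells, a log2 change of 2.87 ± 0.12 (adjusted p = 7.86e-14). Every KO array exceeded every WT array several-fold. H2-Eb1 had 3289, 3358 and 4225 units in KO cells, against 615, 616 and 654 in WT cells, a log2 change of 2.52 ± 0.11 (adjusted p = 1.24e-13). Cd74 ILMN_3089584 had 12021, 12792 and 13806 units in KO cells, against 1963, 1995 and 2132 in WT cells, a log2 change of 2.66 ± 0.09 (adjusted p = 6.09e-15). The H2-Ab1 probe ILMN_2607675 had 8881, 9058 and 12000.3 units in KO cells, against 2181, 2216 and 2415 in WT cells, a log2 change of 2.12 ± 0.11 (adjusted p = 3.2e-12). The groups stood apart for each of these probes, and the KO replicate 19 was the highest array for H2-Ab1, H2-Ea, H2-Eb1 and Cd74.

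Of the editors, H2-DMb1 went the way of the classical chains and H2-Oa the other way. H2-DMb1 had 1677, 1789 and 1888 units in KO cells, against 1371, 1379 and 1494 in WT cells, a small rise of 0.33 ± 0.09 (adjusted p = 0.00857). H2-Oa had 192, 195 and 221 units in KO cells, not above background by the authors' measure, against 629.9, 631 and 741 in WT cells. It was at least 3.29-fold lower in KO cells (adjusted p = 1.09e-11).

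KO cells with RANKL also exceeded WT cells without it for 6 of the 9 probes, while H2-Ab1 ILMN_1226525 had the largest change of the 9 and was lower, by -2.41 ± 0.11 (adjusted p = 1.40e-12). Set against M-CSF only, H2-Eb1 was higher by 1.69 ± 0.10, H2-Ea by 1.57 ± 0.11, H2-Aa by 1.49 ± 0.11 and Cd74 by 1.32 and 1.27 on the log2 scale, with adjusted p-values from 9.09e-11 to 4.28e-09. H2-DMb1 stayed lower, by -0.44 ± 0.09 (adjusted p = 0.00105), and H2-Oa was 202 ± 16.2 in KO cells with RANKL and 202 ± 6.84 in WT cells with M-CSF only. Of the 9 probes 6 were higher, 2 lower and 1 was not called, where 15.7% of all probes and 31.8% of named probes were called (of all probes, 7.24% higher and 8.47% lower). Genotype and RANKL both differ between these groups, and their parts cannot be told apart. The call for H2-Ab1 ILMN_2631423 (0.44 ± 0.12, adjusted p = 0.0169) was lost without KO replicate 19 (adjusted p = 0.157) or without M-CSF replicate 2 (0.0503).

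The 4 H2-Ab1 probes did not move as 1. In KO cells with RANKL on day 1 the probes ILMN_2607675, ILMN_2913716 and ILMN_2631423 were higher than in WT cells with RANKL, by 2.12, 1.66 and 1.61 on the log2 scale. ILMN_1226525 was lower, with 340.1, 420.3 and 424 units in KO cells against 1048, 1083 and 1266 in WT cells, a log2 change of -1.52 ± 0.11 (adjusted p = 1.01e-09). With RANKL against M-CSF only, in WT cells, all 4 fell together. Within an array, the log2 intensity of ILMN_1226525 minus that of ILMN_2607675 averaged -4.65 ± 0.20 in KO cells with RANKL, -1.01 ± 0.07 in WT cells with RANKL and -1.35 ± 0.19 in WT cells with M-CSF only (SD). On day 3 it averaged -1.17 ± 0.10 in KO cells with PGE2, -1.61 ± 0.15 in KO cells, -0.94 ± 0.26 in WT cells with NS398 and -0.72 ± 0.19 in WT cells. These differences carry no test, since the pair was chosen after its values were seen. H2-Ab1 is among the most variable genes of the mouse and CD1 is outbred. Whether the probes match the alleles of these mice was not tested, since no probe sequences were used here.

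**Figure D2:**
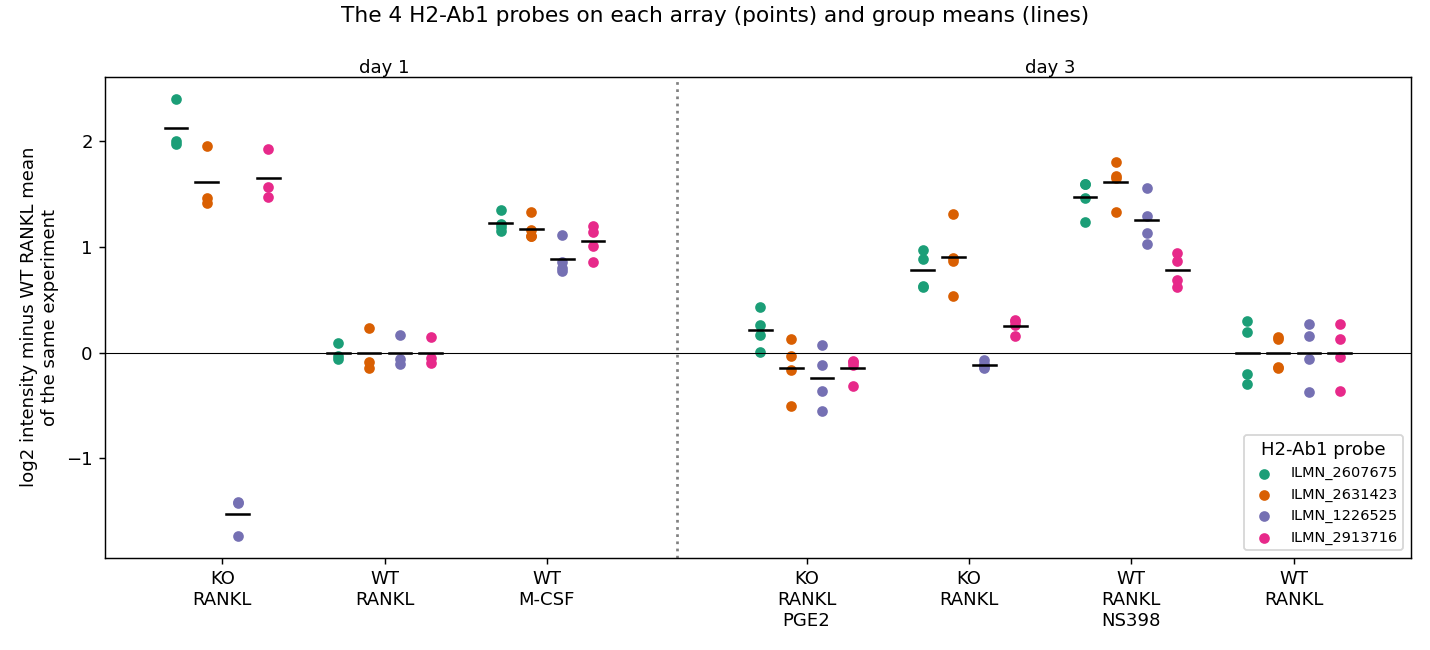
Log2 intensity of the 4 H2-Ab1 probes on each array minus that probe's mean in WT cells with RANKL of the same experiment, with group means as lines. On day 1 ILMN_1226525 lies at a mean of -1.52 in KO cells while the other probes lie from 1.61 to 2.12, and with NS398 on day 3 all 4 are above WT.

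On day 3 some class II probes differed between KO and WT cells with RANKL and others were not called. KO cells with RANKL had more H2-Ea, H2-Eb1, H2-Ab1 by 2 probes, and Cd74 than WT cells with RANKL, and less H2-DMb1. Of the 9 probes 4 were higher, 1 lower and 4 were not called. The share called was 6.37% of all probes and 16.2% of named probes (of all probes, 3.43% higher and 2.94% lower). The members' median log2 change was 0.26 and that of all probes 0.00, and 5 of the 9 are on the authors' list for this comparison.

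H2-Ea had 298, 306, 322 and 345 units in KO cells, against 133, 133, 140.0 and 162 in WT cells. In WT cells it was not above background by the authors' measure, so it was at least 2.24-fold higher in KO cells (adjusted p = 7.64e-07). H2-Eb1 had 300.3, 302, 307 and 328 units in KO cells, against 163, 171, 179.6 and 186 in WT cells, a log2 change of 0.82 ± 0.07 (adjusted p = 1.91e-06). All KO arrays were above all WT arrays for both chains of I-E.

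H2-Ab1 ILMN_2607675 had 652, 655, 782 and 831 units in KO cells, against 344, 369, 486 and 519 in WT cells, a log2 change of 0.78 ± 0.14 (adjusted p = 0.00208). ILMN_2631423 rose by 0.90 ± 0.16 (adjusted p = 0.00194), while ILMN_2913716 changed by 0.26 ± 0.11 and ILMN_1226525 by -0.11 ± 0.15 without a call. The Cd74 probes rose by 0.65 ± 0.11 and 0.66 ± 0.14 (adjusted p = 0.00138 and 0.00646). H2-Aa had 128, 142, 159 and 160.1 units in KO cells, against 123, 132, 140.0 and 142 in WT cells, near or below the array median, and its groups overlapped. It and H2-Oa are on none of the authors' day 3 lists, and no detection p-value was used here for them on that day.

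H2-DMb1 had 359, 399.8, 403 and 435 units in KO cells, against 539, 572, 591 and 623 in WT cells, a log2 change of -0.54 ± 0.10 (adjusted p = 0.00355). Its groups did not overlap, and its direction is opposite to that of day 1. H2-Oa changed by -0.18 ± 0.07 without a call (adjusted p = 0.142).

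**Figure D3:**
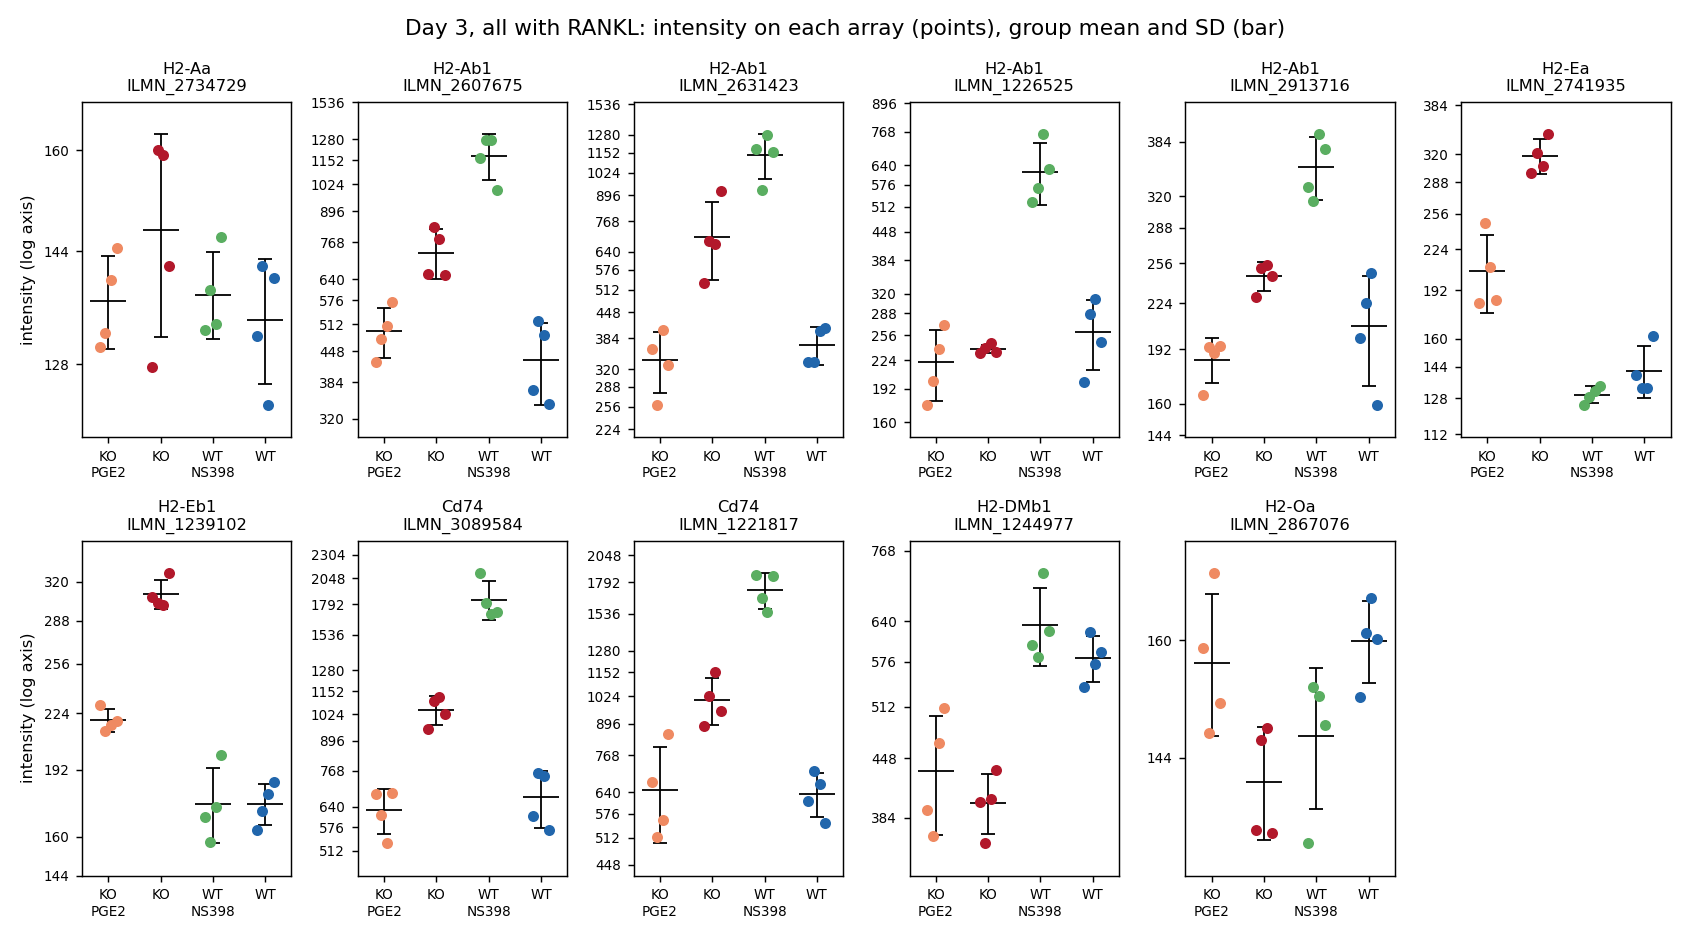
Intensity (log axis) of the class II and Cd74 probes on day 3, all with M-CSF and RANKL, a point per array, in KO cells with PGE2, KO cells, WT cells with NS398 and WT cells, with the group mean and SD. WT cells with NS398 are highest for 4 H2-Ab1 and 2 Cd74 probes, and KO cells are highest for H2-Ea and H2-Eb1.

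NS398, which blocks Cox2 activity, raised I-A beta and the invariant chain in WT cells. The I-E beta chain H2-Eb1, low in both groups, was not called. All 4 H2-Ab1 probes and both Cd74 probes were higher with NS398, while H2-Ea, H2-Eb1, H2-Aa, H2-DMb1 and H2-Oa were not called. That gives 4 of 9 probes higher and 0 lower, where 5.94% of all probes and 15.1% of named probes were called (of all probes, 2.97% higher and 2.97% lower). The 4 are on the authors' list. The members' median log2 change was 0.12, against 0.00 for all probes.

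H2-Ab1 ILMN_2607675 had 997, 1165, 1277 and 1278 units with NS398, against 344, 369, 486 and 519 without it, a log2 change of 1.47 ± 0.14 (adjusted p = 3.51e-06). ILMN_2631423 rose by 1.61 ± 0.16, ILMN_1226525 by 1.25 ± 0.15 and ILMN_2913716 by 0.78 ± 0.11 (adjusted p at most 3.97e-04). Cd74 ILMN_3089584 had 1709, 1726, 1808 and 2101 units with NS398, against 569.9, 609.9, 748 and 759 without it, a log2 change of 1.46 ± 0.11 (adjusted p = 3.05e-07), and ILMN_1221817 rose by 1.45 ± 0.14. No array with NS398 overlapped an array without it for these probes. H2-Ea had 125, 129, 132 and 134 units with NS398, against 133, 133, 140.0 and 162 without it, and was not above background in either group. H2-Eb1 was 175 ± 17.7 with NS398 and 175 ± 9.92 without it, a log2 change of 0.00 ± 0.07. It was above background by the authors' detection p-value (0.00877 with NS398 and 0.00627 without it). Its signal was low in both, against array medians of 150.3 to 150.6.

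KO cells and WT cells with NS398 thus differed in class II levels, and the difference was tested directly. KO and WT cells come from different mice of an outbred stock, and the part of their alleles in this difference was not tested. KO cells had more H2-Ea than WT cells with NS398, at least 2.33-fold (adjusted p = 9.06e-07), and more H2-Eb1, by 0.83 ± 0.07 on the log2 scale (adjusted p = 7.54e-06). They had less H2-Ab1, by -1.37 ± 0.15 for ILMN_1226525 (adjusted p = 8.37e-05), less Cd74, by -0.81 ± 0.11 and -0.78 ± 0.14 (adjusted p = 9.23e-04 and 0.0088), and less H2-DMb1, by -0.66 ± 0.10 (adjusted p = 0.00314). H2-Ab1 ILMN_2607675 changed by -0.69 ± 0.14 (adjusted p = 0.0242), ILMN_2913716 by -0.52 ± 0.11 (0.0472) and ILMN_2631423 by -0.71 ± 0.16 (0.0529). Of the 9 probes 2 were higher, 4 lower and 3 not called, where 0.738% of all probes and 1.91% of named probes were called (of all probes, 0.369% higher and 0.369% lower). None of the 9 was chosen by a list of this comparison, but it shares its arrays with the listed KO and NS398 comparisons. The calls of ILMN_2607675 and ILMN_2913716 were lost without the arrays whose labels end in r (adjusted p = 0.0689 and 0.255) and without single arrays: ILMN_2607675 without NS398 replicate 13, 17 or 18 or KO replicate 7 or 8 (0.0569 to 0.106), and ILMN_2913716 without any 1 of the 8 arrays (0.0581 to 0.201).

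**Figure D4:**
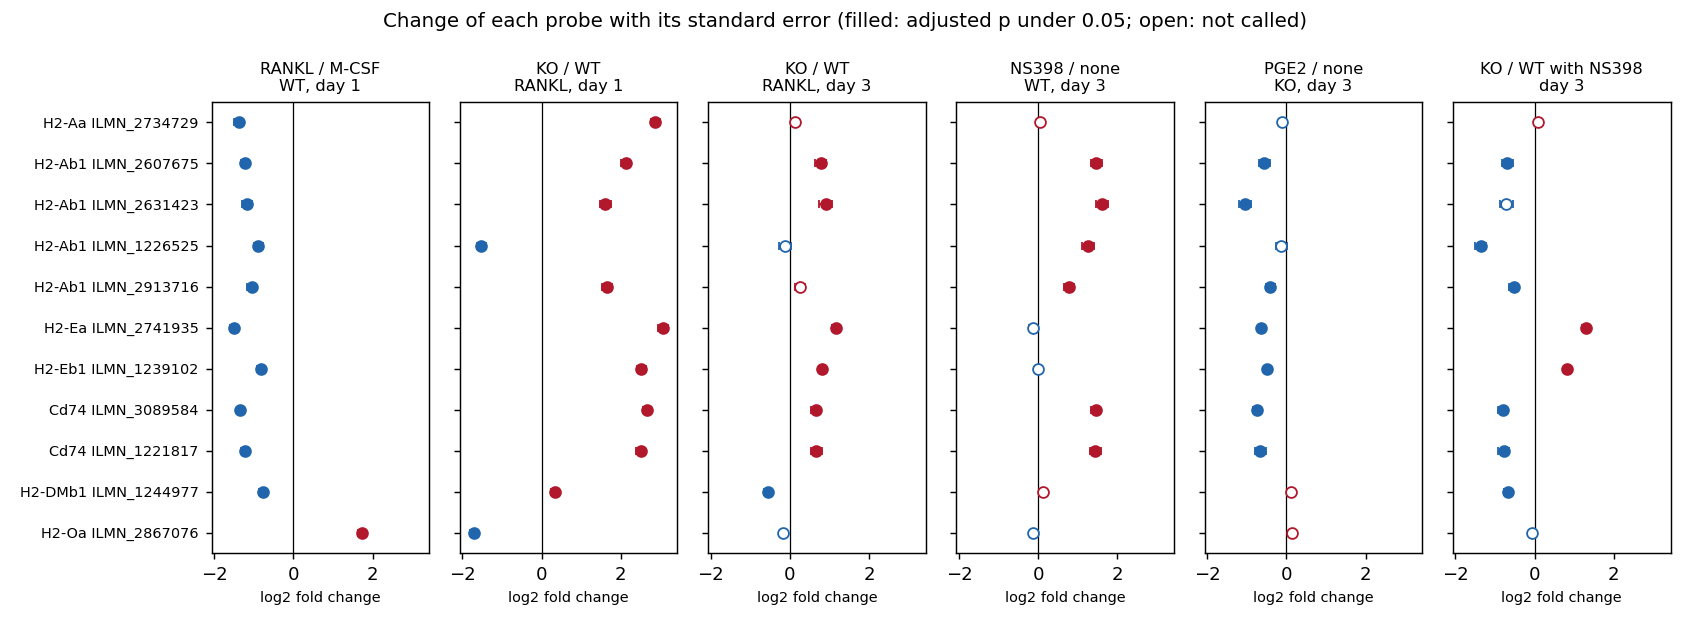
Log2 fold change of each probe with its standard error in 6 comparisons, filled where the adjusted p was under 0.05. On day 3 H2-Eb1 is at 0.00 with NS398 and 0.82 in KO cells, while H2-Ab1 ILMN_2607675 is at 1.47 with NS398 and 0.78 in KO cells. H2-Ea is not above background in WT cells on day 3, with or without NS398, so its points there show measured signal, not the size of a change. H2-Eb1 is above background there but low, at 175 units with or without NS398.

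With PGE2 added to KO cells on day 3, several class II probes were lower than without it. Of the 9 probes 5 were lower and 4 not called, where 13.5% of all probes and 33% of named probes were called (of all probes, 6.04% higher and 7.47% lower). The 5 are on the authors' list. The members' median log2 change was -0.40, against 0.00 for all probes. H2-Ab1 ILMN_2631423 had 259, 328, 360.3 and 403 units with PGE2, against 533, 669, 684 and 916 without it, a log2 change of -1.04 ± 0.16 (adjusted p = 3.80e-04). ILMN_2607675 changed by -0.56 ± 0.14 (adjusted p = 0.0127) and ILMN_2913716 by -0.40 ± 0.11 (adjusted p = 0.0281). H2-Ea had 183, 185, 209.7 and 247 units with PGE2, against 298, 306, 322 and 345 without it, a log2 change of -0.63 ± 0.09 (adjusted p = 2.94e-04). H2-Eb1 had 213, 217, 219 and 229 units with PGE2, against 300.3, 302, 307 and 328 without it, a log2 change of -0.49 ± 0.07 (adjusted p = 2.72e-04). The Cd74 probes fell by 0.74 ± 0.11 and 0.65 ± 0.14 on the log2 scale. The groups did not overlap for any of these probes, while H2-Aa, H2-Ab1 ILMN_1226525, H2-DMb1 and H2-Oa overlapped and were not called.

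Since 3 of the 4 arrays with PGE2 carry the r ending, this comparison was repeated without such arrays, which leaves 1 array with PGE2 assumed to vary like the other groups. H2-Ab1 ILMN_2631423 and H2-Eb1 were then called, 2 of 9. ILMN_2607675 changed by -0.57, H2-Ea by -0.38, ILMN_2913716 by -0.32 and Cd74 ILMN_3089584 by -0.73, none of them called. Cd74 ILMN_1221817 had 513 units in the remaining array with PGE2, against 884, 954 and 1027 in the KO arrays kept. The call of ILMN_2913716 was also lost without PGE2 replicate 21r or 23r or KO replicate 8, 11 or 12r (adjusted p = 0.0528 to 0.0727).

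Between KO cells with PGE2 and WT cells, I-A and the invariant chain were not called, while both chains of I-E were higher, though not under every setting. Against WT cells with RANKL, H2-Ab1 ILMN_2607675 changed by 0.22 ± 0.14 and ILMN_2631423 by -0.14 ± 0.16. ILMN_1226525 changed by -0.24 ± 0.15 and ILMN_2913716 by -0.15 ± 0.11. The Cd74 probes changed by -0.09 ± 0.11 and 0.01 ± 0.14, and H2-Aa, whose signal was low, by 0.03 ± 0.08. None of these was called. H2-Ea was at least 1.44-fold higher in KO cells with PGE2 (adjusted p = 0.00742) and H2-Eb1 was higher by 0.33 ± 0.07 (adjusted p = 0.0369). H2-DMb1 had 366, 391, 466 and 511 units in KO cells with PGE2, against 539 to 623 in WT cells, and narrowly missed the call (-0.43 ± 0.10, adjusted p = 0.0556). So 2 of 9 were called, where 1.2% of all probes and 3.1% of named probes were (of all probes, 0.643% higher and 0.554% lower). The call of H2-Eb1 was lost under 5 other settings (adjusted p = 0.0527 to 0.392) and without 7 of the 8 single arrays (0.0695 to 0.129), and with only the compared groups in the fit neither H2-Ea (adjusted p = 0.112) nor H2-Eb1 (0.113) was called.

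The order of levels on day 3 thus differed by gene and, for H2-Ab1 and Cd74, by probe. For H2-Ab1 ILMN_2607675 it ran from WT cells with NS398 (1179 ± 133) through KO cells (730.0 ± 90.3) to KO cells with PGE2 (494 ± 61.3) and WT cells (429.6 ± 86, SD, n = 4 each), and only the neighbours KO with PGE2 and WT overlapped. By the other H2-Ab1 probes WT cells stood above KO cells with PGE2, with overlap. By ILMN_1226525 WT cells (261) also stood above KO cells (238), with overlap. Cd74 had the order of ILMN_2607675 by its probe ILMN_1221817. By ILMN_3089584 WT cells (672 ± 96.1) stood above KO cells with PGE2 (629 ± 73), again overlapping. For H2-Ea it ran from KO cells (318 ± 20.5) through KO cells with PGE2 (206 ± 29.7) to both WT groups, which were not above background and overlapped (129.9 ± 3.97 with NS398 and 142 ± 13.7 without it). On day 1 the order for H2-Aa, H2-Ea, H2-Eb1 and Cd74 was KO with RANKL, WT with M-CSF only, WT with RANKL, with no overlap between neighbours.

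Over the arrays of each experiment, the 5 named probes most like H2-Ab1 ILMN_2607675, with the 9 class II probes left out of the ranking, included Cd74. On day 1 (10 arrays) these were Mfge8, a secreted opsonin (Pearson r = 0.989), Dusp1, a MAP kinase phosphatase (0.989), the Cd74 probes (0.988 and 0.987) and Dpep2, a dipeptidase (0.987). On day 3 (16 arrays) they were the Cd74 probes (0.950 and 0.942), Gadd45g (0.937), B2m, the light chain of class I (0.936), and Hk3, a hexokinase (0.934). Of the class II probes left out, H2-Ea correlated with it at 0.987 on day 1, above Dpep2 and Cd74 ILMN_1221817, and H2-Eb1 at 0.945. H2-Aa reached 0.979 on day 1, H2-Ab1 ILMN_2913716 0.978 and ILMN_2631423 0.965. H2-DMb1 was at 0.47 there, H2-Ab1 ILMN_1226525 at -0.49 and H2-Oa at -0.87. On day 3 H2-Ea was at -0.13, with WT cells not above background, and H2-Eb1 at -0.03. These are descriptions across arrays of different treatments, with no p.

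Lists of genes of the wider antigen presentation route were drawn up with earlier results of these data known. Their counts are to be read against the named probes, of which 75.8% were called with RANKL, 70.3% in KO cells on day 1, 16.2% in KO cells on day 3, 15.1% with NS398 and 33% with PGE2. Of 34 genes of MHC class I presentation 21 carry a name. In WT cells with RANKL against M-CSF only 18 rose, 0 fell and 3 were not called, with a median log2 change of 1.67. In KO cells against WT cells with RANKL 0 rose, 20 fell and 1 was not called, with a median of -1.24. H2-T10, a nonclassical class I heavy chain, changed by 2.33 with RANKL and by -2.56 in KO cells, and Psmb9, an immunoproteasome subunit, by 2.17 and -2.10. The class II probes moved the opposite way in both comparisons, save H2-Oa and, in KO cells, H2-Ab1 ILMN_1226525. Class I heavy chains are near-identical, so a probe named for 1 may read others. On day 3, 2 of 20 rose and 4 fell in KO cells, 5 rose and 1 fell with NS398, and 5 rose and 2 fell with PGE2.

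Of 27 regulators of class II transcription 17 carry a name, and 9 rose and 3 fell in WT cells with RANKL against M-CSF only, while 3 rose and 9 fell in KO cells against WT cells with RANKL. Their median log2 changes were 0.34 and -0.27, and the number called, 12 of 17 in each, is near the share of all named probes. Irf1, a transcription factor that drives Ciita, averaged 20985 units in WT cells with RANKL and 3913 with M-CSF only, a log2 change of 2.42 ± 0.11 (adjusted p = 1.40e-13), and changed by -2.02 ± 0.12 in KO cells against WT cells on day 1. Irf1 on day 3 changed by -1.73 in KO cells, -1.83 with NS398 and 1.27 with PGE2. Jak2, a kinase of the interferon-gamma receptor, changed by 1.15 with RANKL and -1.38 in KO cells on day 1. Jak2 on day 3 changed by -0.70 in KO cells and -1.26 with NS398. In KO cells with RANKL against M-CSF only Irf1 was higher, by 0.41 (adjusted p = 0.012), while 14 of the 17 regulators were not called. Of the 9 class II probes 6 were higher there, 2 lower and 1 was not called. On day 3, 1 of 16 rose and 2 fell in KO cells and also with NS398, and 4 rose and 4 fell with PGE2.

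**Figure D5:**
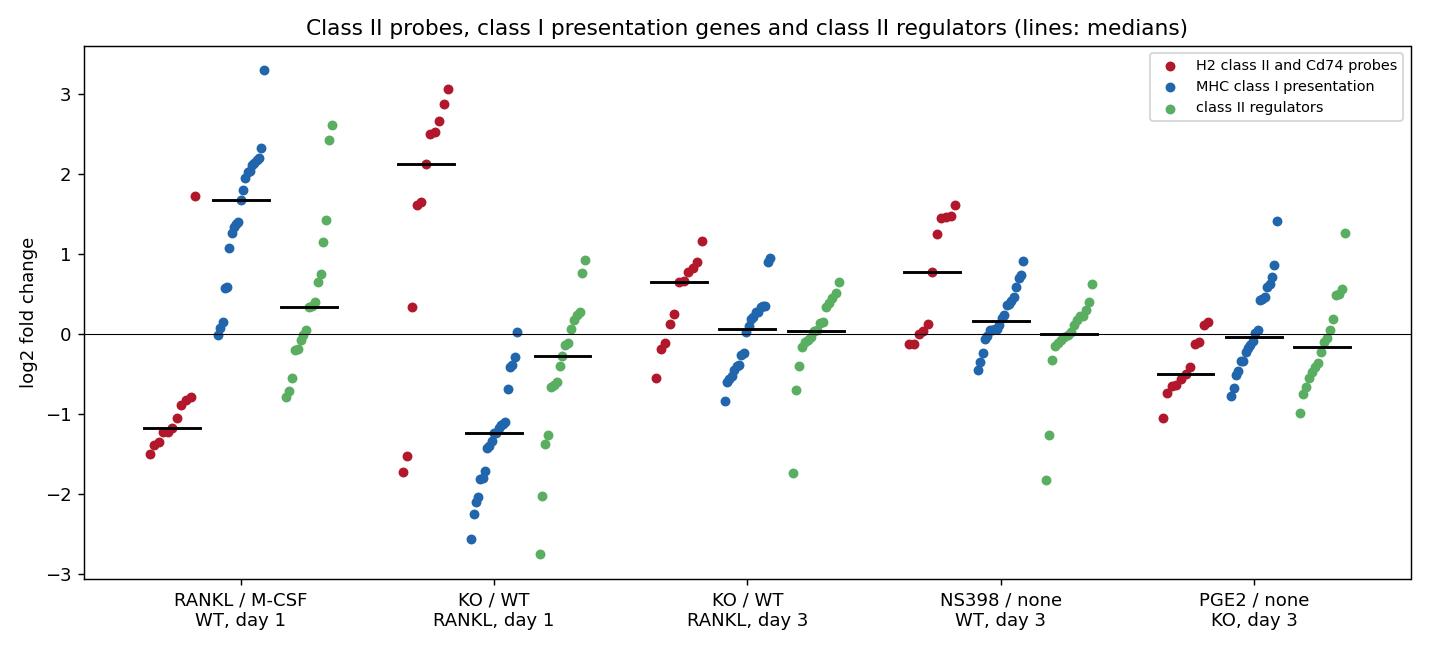
Log2 fold change in 5 comparisons of the class II and Cd74 probes, the class I presentation genes and the class II regulators, a point per probe or gene and a line at the median. On day 1 the class I genes lie at medians of 1.67 with RANKL and -1.24 in KO cells, on the other side of 0 from most class II probes.

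Among genes that process antigen or class II itself, 18 of 22 carry a name. With RANKL 5 rose and 8 fell, and in KO cells on day 1 6 rose and 5 fell, shares called that are near or below those of all named probes. Lgmn, the endosomal protease legumain, and Ctsl, which degrades the invariant chain in some cells, moved with class II, by -2.03 and -1.64 with RANKL and by 1.76 and 1.31 in KO cells. Cst7, an inhibitor of cathepsins, averaged 233 units in KO cells with RANKL, 1279 in WT cells with RANKL and 219 in WT cells with M-CSF only, and was above background by the authors' measure in WT cells with RANKL alone. On day 3, 1 of 18 rose in KO cells, 0 were called with NS398 and 4 fell with PGE2, among them Lamp1, a lysosomal membrane protein, by -0.95.

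Of 19 costimulation genes 13 carry a name, and 9 rose and 4 fell with RANKL while 2 rose and 8 fell in KO cells on day 1. Cd40, which receives T cell help, changed by 2.41 with RANKL and -2.66 in KO cells on day 1, and on day 3 by -2.53 in KO cells, -2.61 with NS398 and 2.45 with PGE2. Cd83, known to stabilise surface class II in dendritic cells, changed by -1.30 in KO cells and -1.65 with NS398 on day 3, and was not called with PGE2 (0.06). Slamf7, an adhesion receptor, differed between KO cells and WT cells with NS398 by -1.13. Of 18 cytokine genes 12 carry a name, and 4 rose and 7 fell with RANKL while 7 rose and 4 fell in KO cells on day 1. Il10, which lowers class II in macrophages, changed on day 3 by -2.02 in KO cells, by -2.24 with NS398 and by 2.90 with PGE2. Il1b, an inflammatory cytokine, changed by -4.67, -5.62 and 4.99 in the same order, and Tnf by -1.86, -2.56 and 2.09.

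Most named markers of dendritic and B cells moved with class II on day 1 with RANKL and in KO against WT cells. In KO cells with RANKL against M-CSF only, where 6 of the 9 class II probes were higher, they did not. There 0 of the 6 named dendritic cell markers rose, 2 fell and 4 were not called. Of the 2 named B cell markers 0 rose, 1 fell and 1 was not called, where 31.8% of named probes were called. Of 14 dendritic cell markers 6 carry a name, and 2 rose and 4 fell with RANKL while 4 rose and 2 fell in KO cells. Clec10a, Itgax, Siglech and Batf3 changed by -2.98, -1.34, -1.01 and -0.39 with RANKL and by 2.37, 0.84, 0.68 and 0.54 in KO cells. Ccr7 and Bst2 went the other way, by 0.64 and 1.93 with RANKL and by -0.39 and -1.70 in KO cells. Siglech in WT cells with RANKL and Ccr7 in the other day 1 groups were not above background, so their changes are of signal near it. The 6 summed to 4239.7 to 5064 units in KO arrays with RANKL, 3391 to 3705 in WT arrays with RANKL and 5036 to 6419.7 in WT arrays with M-CSF only, and 5 of the 6 were detected in each group. On day 3 they summed to 956 to 1092 units in KO arrays with PGE2, 979 to 1052 in KO arrays, 850.1 to 1097 in arrays with NS398 and 915 to 981 in WT arrays, and 0 of 6 were called in the KO, NS398 or PGE2 comparison. No detection p-value was used here for these 6 on day 3, so whether they were above background then was not tested.

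Of 14 B cell markers 2 carry a name, Blnk and Cd22, and both fell with RANKL (-1.64 and -0.38) and rose in KO cells (1.02 and 0.30). Together they reached 1413 to 1809 units in KO arrays with RANKL, 912 to 1021 in WT arrays with RANKL and 1861 to 2706 in WT arrays with M-CSF only. On day 3 Blnk fell by 1.09 on the log2 scale with PGE2. Of 9 granulocyte markers, all named, 7 rose and 2 fell in KO cells on day 1, with sums of 42376 to 57783 units in KO arrays, 82535 to 84181 in WT arrays with RANKL and 10853 to 11552 with M-CSF only. Of 11 T and NK cell markers 2 carry a name, and both rose with RANKL and fell in KO cells. On day 3, 2 of the 9 fell and 7 were not called in KO cells, 1 fell and 8 were not called with NS398, and 5 rose and 4 were not called with PGE2, with sums of 4707 to 8786 units in KO arrays with PGE2, 1377 to 1607 in KO arrays, 1476 to 2208 in arrays with NS398 and 2615 to 3807 in WT arrays.

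Of the 9 named macrophage markers on day 3, 5 rose, 1 fell and 3 were not called in KO cells (median log2 change 0.59). With NS398 2 rose, 1 fell and 6 were not called (0.21), and with PGE2 1 rose, 4 fell and 4 were not called (-0.41). Their sums were 50229 to 74977 units in KO arrays with PGE2, 55431 to 64376 in KO arrays, 45627 to 54694 in arrays with NS398 and 52549 to 65943 in WT arrays, and these ranges overlap between all groups but KO and NS398. On day 1 they summed to 149573 to 156704 units in KO arrays with RANKL, 134911 to 137389 in WT arrays with RANKL and 151051 to 164761 with M-CSF only. The part of these cells in the class II results was not tested.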

How the data were processed

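Biotin-labelled cRNA was read on single-colour Illumina arrays. The authors deposited linear intensity per probe and array, taken here as quantile normalized within each experiment because the arrays of an experiment share their quantiles. The submitters' processing notes name GenomeStudio. Per the file headers, the authors' 5 comparison tables give group mean intensity, a detection p-value, a difference score and the ratio of group means. The ratio was within 1e-06 of the quotient of the means, and the smallest absolute score was 13.

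Intensities were put on the log2 scale. The floor of 32 changed nothing, since the lowest deposited intensity was 89.4. A probe was kept if it passed the 40th percentile of an array in at least as many arrays as the smallest group holds: 17211 in experiment 1 and 18961 in experiment 2, with all 9 members in each. Each experiment was fitted with limma 3.58.1 (R 4.3.3, lmFit and eBayes), with a mean per group and no covariates. Tests were two-sided, and p-values were adjusted over the kept probes by Benjamini-Hochberg. Calls are at an adjusted p under 0.05. The script was tested on simulated data. A probe is called above background in a group where the deposited detection p-value is under 0.05. Bounds ("at least") set the dim group, per array, at the higher of its own value and the lowest probe detected there. The number of arrays limits the precision.

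Every member probe is named. Up to 3 genes of a list with the lowest p-values per comparison were named, and the 5 named probes, class II members left out, most correlated with the brightest H2-Ab1 probe. Where several probes carry a gene, lists use the one with the highest mean. A gene of these lists is not reported here. Named markers of dendritic and B cells are given whole. The members and lists were chosen with earlier results of these data known. Alternatives covered the filter, the normalization (cyclic loess, median centring), the background, the groups in the fit, eBayes settings, the r ending and leaving out each array.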

Additional observations from a re-analysis of the deposited data

Results flagged for a closer look

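H2-Ab1 ILMN_2913716 in KO cells with PGE2 was lowest in replicate 21r, at 165 units, well apart from the other 3 arrays at 189, 193 and 194. H2-Ea in WT cells with M-CSF only was highest in replicate 6, at 2096 units, against 1849 to 1884 in the other 3. Of 55 groups of 4 arrays checked, these 2 stood apart, and chance alone sets about 1 in 20 such groups apart. H2-DMb1 was higher in every KO array than in every WT array on day 1 (log2 0.33) and lower in every one on day 3 (log2 -0.54), a difference that was not tested. Because each experiment has its own normalization, the 2 days were not set against each other in a test.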

How the results depend on the processing

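Of 1376 values of single probes under other settings, 1328 kept their direction and side of the threshold, 41 lost the call, 7 gained it and 0 reversed. The numbers called for RANKL (9), KO on day 1 (9), KO on day 3 (5) and NS398 (4) were the same under every setting run. KO cells with RANKL against M-CSF only gave 7 to 8 and KO cells against WT cells with NS398 4 to 7. For PGE2, 5 became 2 without the arrays whose labels end in r, and 4 to 5 when single arrays were left out. For KO cells with PGE2 against WT cells, 2 became 1 with the filter at the 60th percentile, with eBayes trend and robust, with the r ending as covariate and without the r arrays, 0 with only the compared groups, and 1 to 2 when single arrays were left out. The cause was not tested, beyond the fewer arrays of some settings. Over all probes, the number called for KO cells with PGE2 against WT cells was 227, but 95 with only the compared groups, 370 with the r ending as covariate and 34 without the r arrays. For PGE2 it was 2561, but 589 without the r arrays and 1656 without KO replicate 8. For KO cells against WT cells with NS398 it was 140, but 91 without the r arrays and 88 without NS398 replicate 18. At the 60th percentile 7 of the 9 members stayed in that fit. H2-Aa and H2-Oa have low signal on day 3 with no detection p-value used here. H2-Ea is not above background in WT cells there, so KO against WT gives a lower bound and NS398 against none cannot be read. No paired analysis was possible because the labels do not say which arrays, if any, came from the same mouse.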
